A study of Ovis aries with 9 samples.

Results

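The nuclear genes for subunits of respiratory complexes III, IV and V were followed across sheep liver. They were chosen by name alone, as the rows of the expression table whose symbol begins with UQCR, COX4, COX5, COX6, COX7, COX8 or ATP5, or is CYC1 or CYCS. The rule found 19 of 21257 genes. Of these, 17 belong to complex V, the ATP synthase: 16 structural subunits and its inhibitor ATP5IF1. Complex III was represented by UQCRH alone and complex IV by COX5A alone. The other nuclear subunits of both complexes and cytochrome c were not analysed here, apart from NDUFA4, which the rule does not select. What follows is therefore mainly an account of the ATP synthase.

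The livers came from Tan sheep, all male and 5 months old, and RNA was sequenced in 9 libraries, 3 per group. Controls ate a basal diet, and the treated groups ate that diet with 1% or 2% succinate, the tricarboxylic acid cycle intermediate that complex II oxidises, through 60 days that followed 10 pretrial days. The design text describes 30 sheep, kept as pairs in 5 stalls per group, and the labels do not tie a library to an animal or a stall, so that the spread behind each p-value is that between libraries and may be partly technical. For library 3 at 1% the treatment label gives 1% and the title gives 2%. Its title and column name carry the prefix of the other 1% libraries, not that of the 2% libraries. It was kept at 1%, and each comparison was repeated with it at 2%.

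Complexes I, III and IV of the mitochondrial inner membrane pass electrons to oxygen and pump protons, and complex V lets the protons flow back and uses that flow to make ATP. Complex V has a catalytic head in the matrix, a central shaft and a ring of c subunits that turn together, and a peripheral stalk that holds the head still. Complexes III, IV and V combine subunits made from nuclear genes with a few made from mitochondrial DNA, and in liver the ATP made there supports gluconeogenesis and urea synthesis.

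Levels are the deposited FPKM, which divide the fragments of a gene by the length of its model and by the depth of the library. Reads recovered from these values numbered 13818648 to 18172528 per library, of which the 19 genes took 0.122% to 0.179%. The liver markers, such as albumin, had a median of 1941 to 3787 FPKM in the 9 libraries, against 0 to 0.0210 FPKM for skeletal muscle markers, and the highest muscle marker value was 3.31 FPKM. Control library 1 stood apart in scale, with a median-ratio factor of 1.21 where the other 8 libraries had 0.902 to 1.03.

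The ATP synthase genes spanned a wide range of levels that kept much the same order in every library. The beta subunit gene ATP5F1B, whose product carries the catalytic sites, was the highest member in 9 of 9 libraries at a mean of 223.3 FPKM. The alpha subunit gene ATP5F1A followed at 165.9 FPKM and the membrane subunit gene ATP5MG at 145.9 FPKM. ATP5F1A was above ATP5MG in 8 of 9 libraries, and ATP5MG was above the next member, ATP5PO, in 9 of 9. The middle of the order was less settled: ATP5IF1 and ATP5MC3, at means of 67.1 and 65.9 FPKM, changed places between libraries, with ATP5IF1 the higher in 5 of 9. The gamma subunit gene ATP5F1C, which encodes the central shaft, was the lowest member in 9 of 9 libraries at 7.51 FPKM, resting on 79 to 180 reads per library. How reads shared with near-identical copies were counted is not given in the sources used here, so the low level of ATP5F1C is uncertain in that respect.

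**Figure D1:**
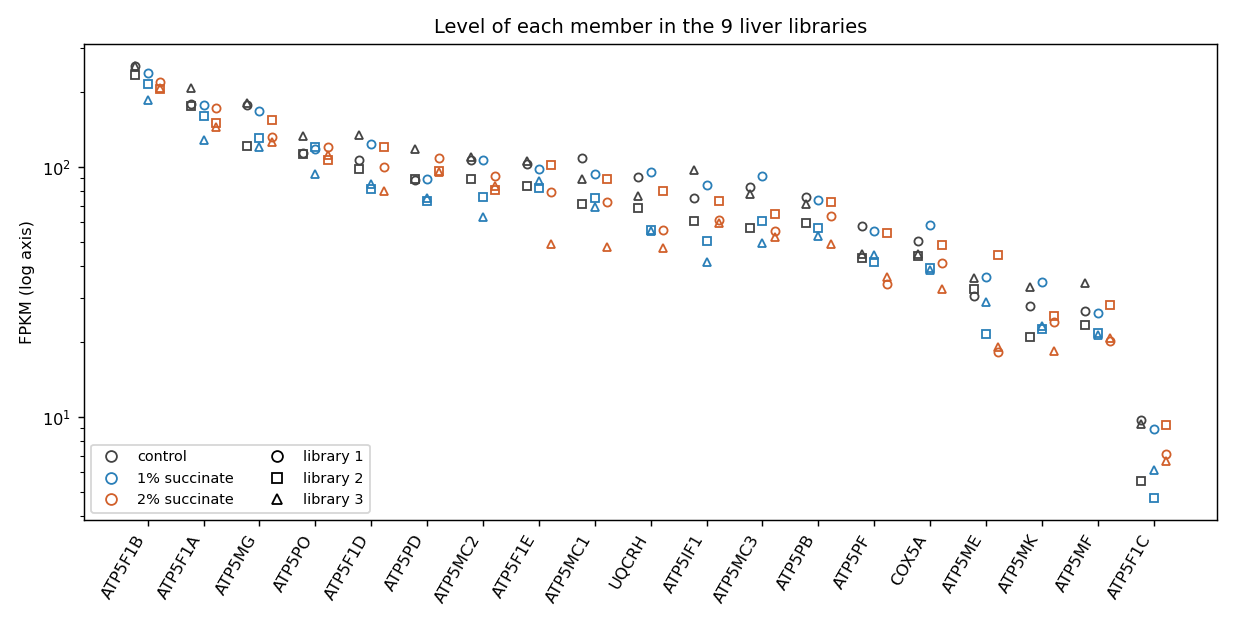
FPKM (log axis) of the 19 members in each of the 9 libraries, ordered by mean level; colours mark the diet and symbols the library number. ATP5F1B is at the top in every library (185.3 to 254.7 FPKM), ATP5F1C at the bottom (4.73 to 9.71 FPKM), and the 3 diets overlap for most members.

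Of the genes for the head and shaft, ATP5F1B was at 252.8, 233.7 and 254.7 FPKM in the controls, at 237.0, 215.3 and 185.3 FPKM at 1%, and at 218.0, 205.1 and 207.6 FPKM at 2%. ATP5F1A was at 178.2, 175.8 and 206.8 FPKM in the controls, 176.6, 160.8 and 127.8 FPKM at 1%, and 172.5, 149.7 and 144.6 FPKM at 2%. For both genes every 2% library lay below every control, while the highest 1% library lay among the controls. At 2% the log2 change of ATP5F1B was -0.23 (SE 0.171, 95% interval -0.62 to 0.15, adjusted p = 0.950) and that of ATP5F1A -0.26 (SE 0.188, 95% interval -0.68 to 0.16, adjusted p = 0.950), by limma on log2(FPKM + 1) with Benjamini-Hochberg adjustment over all 11944 tested genes; neither passed the threshold of 0.05. These were 2 of 19 members with 2% below control and no overlap, where 8.02% of all tested genes had that order, and after median-ratio scaling of the libraries 0 of 19 had it. Quantile scaling reduced the changes at 2% to -0.08 and -0.12. At 1% the log2 changes were -0.22 for ATP5F1B (SE 0.171, adjusted p = 0.533) and -0.28 for ATP5F1A (SE 0.188, adjusted p = 0.484). Without library 3 at 1% they were -0.13 and -0.14, and after quantile scaling -0.01 and -0.14.

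The epsilon subunit gene ATP5F1E, for a small protein of the central shaft, was at 102.6, 84.0 and 105.4 FPKM in the controls, 98.7, 82.2 and 88.3 FPKM at 1%, and 79.4, 101.8 and 49.1 FPKM at 2%. Library 3 at 2% had the lowest value and library 2 at 2% lay among the controls, so the groups overlapped. ATP5F1E had the smallest p of any member at 2% (log2 change -0.39, SE 0.255, 95% interval -0.97 to 0.18, adjusted p = 0.950), and the change was -0.11 without library 3 at 2% and -0.62 without library 2 at 2%. Between 2% and 1% its log2 difference was -0.28 (SE 0.255, adjusted p = 0.813), 0.01 without library 3 at 2% and -0.51 without library 2 at 2%. The delta subunit gene ATP5F1D, for another shaft protein, ranged from 80.3 to 133.9 FPKM.

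The peripheral stalk is built from the products of ATP5PB, ATP5PD, ATP5PF and ATP5PO. ATP5PO, the oligomycin sensitivity conferring protein that joins stalk and head, varied least of all members, between 93.7 and 132.6 FPKM, with a coefficient of variation of 9.35% over the 9 libraries. ATP5PB ranged from 49.1 to 76.0 FPKM and ATP5PF from 33.9 to 58.1 FPKM. ATP5PD was the stalk gene that separated the doses: it was at 88.9, 89.8 and 117.6 FPKM in the controls, 89.5, 73.4 and 75.3 FPKM at 1%, and 108.8, 96.6 and 95.5 FPKM at 2%. All 3 libraries at 2% lay above all 3 at 1%, and the controls overlapped both doses. ATP5PD had the smallest p of any member in the comparison of the doses (log2 difference 0.34, SE 0.179, 95% interval -0.07 to 0.74, adjusted p = 0.702) and at 1% against control (log2 change -0.30, SE 0.179, 95% interval -0.71 to 0.10, adjusted p = 0.427; -0.17 without control library 3). It was the 1 member of 19 with 2% above 1% and no overlap, an order that 11% of all tested genes had. When the library labelled both ways was counted at 2%, 0 of 19 members had that order.

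The c ring, which turns as protons pass, is built from 1 mature protein encoded by 3 genes, ATP5MC1, ATP5MC2 and ATP5MC3, whose products differ in the targeting peptide that is cut off on import. ATP5MC1 was at 109.0, 71.1 and 89.9 FPKM in the controls, 93.5, 75.5 and 69.0 FPKM at 1%, and 72.8, 89.8 and 47.7 FPKM at 2%. ATP5MC2 was at 106.5, 89.3 and 110.0 FPKM in the controls, 106.6, 75.8 and 63.3 FPKM at 1%, and 92.3, 80.8 and 83.8 FPKM at 2%. ATP5MC3 was at 83.6, 57.0 and 77.7 FPKM in the controls, 91.7, 60.8 and 49.8 FPKM at 1%, and 55.5, 64.6 and 52.6 FPKM at 2%. The groups overlapped for each of the 3 genes, with library 1 at 1% among or above the controls each time.

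Summed, the 3 c genes gave 182.0 to 299.1 FPKM. ATP5MC2 supplied the most on average, 38.3% ± 3.86 of the summed FPKM (SD, n = 9 libraries), then ATP5MC1 with 33.8% ± 3.79 and ATP5MC3 with 27.9% ± 1.74. No gene dominated: the share of ATP5MC1 ran from 25.9% to 38.2%, that of ATP5MC2 from 34.4% to 45.5% and that of ATP5MC3 from 25.2% to 31.4%. The share of ATP5MC2 averaged 38.8% ± 2.83 over the controls, 35.7% ± 0.896 over the 1% libraries and 40.6% ± 5.69 over the 2% libraries (SD, n = 3), and the ranges of the groups overlapped. The log2 change of ATP5MC2 at 1% was -0.34 (SE 0.212, 95% interval -0.81 to 0.14, adjusted p = 0.449), and that of ATP5MC1 at 2% was -0.38 (SE 0.262, 95% interval -0.97 to 0.20, adjusted p = 0.950). The former was -0.17 without library 3 at 1% and -0.54 without library 1 at 1%. The latter was -0.13 without library 3 at 2%, -0.23 without control library 1 and -0.58 without library 2 at 2%.

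The accessory membrane subunits ATP5ME, ATP5MF, ATP5MG and ATP5MK sit beside the ring and help ATP synthases pair up in the cristae. ATP5MG was at 177.9, 121.4 and 181.1 FPKM in the controls, 167.5, 131.1 and 120.4 FPKM at 1%, and 132.5, 154.9 and 126.5 FPKM at 2%, and the groups overlapped. The other 3 were far lower per length, at means of 29.6 FPKM for ATP5ME, 25.5 FPKM for ATP5MK and 24.7 FPKM for ATP5MF. ATP5ME had the widest range relative to its level, from 18.1 to 44.4 FPKM, a 2.45-fold span resting on 75 to 196 reads, and both extremes were libraries at 2%. ATP5MK was at 27.7, 20.9 and 33.0 FPKM in the controls, 34.7, 22.5 and 23.1 FPKM at 1%, and 24.0, 25.4 and 18.4 FPKM at 2%. Its log2 difference between 2% and 1% was -0.22 (SE 0.233, adjusted p = 0.841), the third smallest p of the members in that comparison; it was -0.02 without library 1 at 1% and -0.09 without library 3 at 2%.

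ATP5IF1 encodes the inhibitory factor that binds the head and blocks ATP hydrolysis when the matrix turns acidic. It was at 75.0, 60.6 and 97.0 FPKM in the controls, 85.1, 50.5 and 41.6 FPKM at 1%, and 61.2, 73.3 and 59.5 FPKM at 2%. Libraries 2 and 3 at 1% lay below every control and library 1 at 1% lay among them. Its log2 change at 1%, -0.43 (SE 0.277, 95% interval -1.04 to 0.19, adjusted p = 0.465), was the largest of any member in size and did not pass; it was -0.21 without library 3 at 1%, -0.25 without control library 3 and -0.72 without library 1 at 1%.

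UQCRH, the hinge protein of complex III that helps cytochrome c1 meet cytochrome c, was at 91.5, 68.5 and 76.2 FPKM in the controls, 95.6, 55.9 and 55.2 FPKM at 1%, and 55.8, 80.3 and 47.6 FPKM at 2%. Each dose had 1 library among or above the controls and the other libraries below them. The log2 change at 2% was -0.38 (SE 0.270, 95% interval -0.99 to 0.22, adjusted p = 0.950) and that at 1% -0.23 (SE 0.270, adjusted p = 0.694). Single libraries moved both: the change at 2% was -0.22 without library 3 and -0.59 without library 2 of that dose, and the change at 1% was -0.48 without library 1, -0.10 without library 2 or library 3 of that dose and -0.12 without control library 1. COX5A, a subunit of complex IV that joins early in its assembly, was at 50.7, 43.9 and 44.7 FPKM in the controls, 58.5, 39.6 and 38.6 FPKM at 1%, and 41.4, 48.8 and 32.4 FPKM at 2%. The log2 change of COX5A was -0.20 at 2% (SE 0.215, adjusted p = 0.954), -0.04 without library 3 and -0.33 without library 2 of that dose; at 1% it was -0.05 (SE 0.215, adjusted p = 0.930) as deposited and 0.13 after median-ratio scaling, so no direction is given at 1%. COX5A and UQCRH had the closest pattern of any pair of members, with r = 0.96 across the 9 libraries, which share depth and RNA quality as well as diet.

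Over all 19 members, no gene passed the adjusted threshold at either dose. At 1%, 0 of 19 passed, where 0.0167% of the 11944 tested genes did, and 0 of 19 were at an unadjusted p under 0.05, where 14.9% of all tested genes were; 0 of 19 had every 1% library below every control, where 15.6% of tested genes had. Members' adjusted p ran from 0.427 to 0.967. The fitted changes lay below 0 for 19 of 19 members as deposited, for 14 after quantile scaling and for 11 after median-ratio scaling, and their median was -0.21. The median of all tested genes was itself -0.14, with 68.6% of them below 0, and median-ratio scaling moved it to 0.01. The members' median minus that of all genes was -0.07. Single libraries moved this difference: it was -0.17 without library 1 at 1%, -0.15 without control library 2, -0.02 without library 2 at 1%, and 0.01 and 0.03 on the other side of 0 without library 3 at 1% and without control library 3.

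At 2%, 0 of 19 members passed, where 0.0502% of tested genes did, and 0 of 19 were at an unadjusted p under 0.05, where 5.18% of tested genes were. The changes lay below 0 for 18 of 19 members as deposited, 16 after quantile scaling and 18 after median-ratio scaling, and ATP5PD was the exception as deposited. Their median of -0.24 compared with -0.06 for all tested genes, of which 60.7% were below 0, a difference of -0.18. That difference was -0.08 without library 3 at 2% and -0.09 without control library 3. It was -0.27 without library 2 at 2%, -0.25 without control library 2, -0.23 without control library 1 and -0.175 after median-ratio scaling. Between the doses, 0 of 19 passed, where 0% of tested genes did, and 0 of 19 were at an unadjusted p under 0.05, where 7.48% were; 11 members were lower at 2% and 8 higher, with a median of -0.01. The count lower at 2% was 17 when the library labelled both ways was counted at 2% or left out, 5 without library 1 at 1% and 4 without library 3 at 2%, so no direction between the doses is given. A count test, limma voom on the recovered reads, also passed 0 of 19 members in each of the 3 comparisons. The comparisons with control share the same 3 control libraries.

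**Figure D2:**
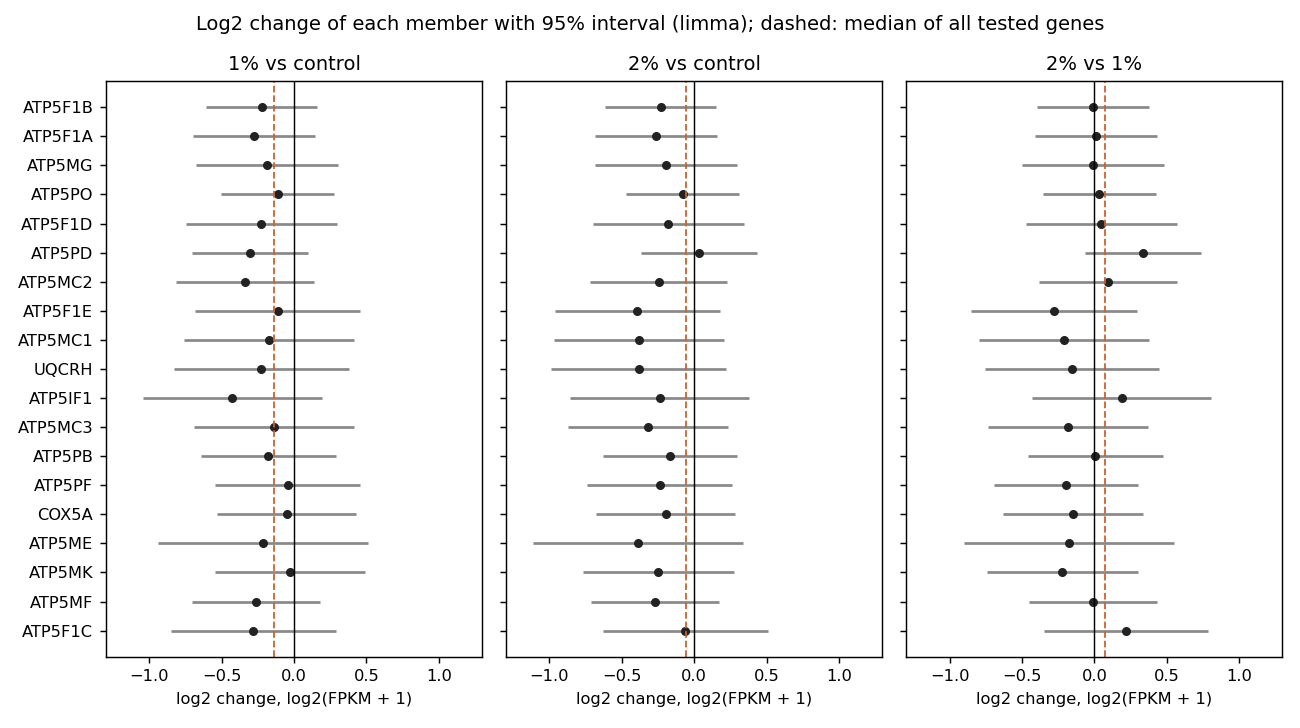
Fitted log2 change of each member (points) with its 95% interval (bars, limma on 9 libraries) for 1% against control, 2% against control and 2% against 1%; the dashed line is the median of all 11944 tested genes. Every interval includes 0; at 1% the members lie around the dashed line at -0.14, and at 2% most lie below the line at -0.06.

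The intervals limit what these 9 libraries could show. For ATP5F1B, the best measured member with 4935 to 7651 reads, the standard error was 0.171 on the log2 scale, and for ATP5ME it was 0.324. Counting error was at most 11.6% of a value, for ATP5ME in its lowest library and 1.42% for ATP5F1B. In bulk tissue, fewer cells of a type and less RNA per cell cannot be told apart.

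Within each diet the members stood together, high in some libraries and low in others. Of the 19 members, 18 were above their own mean in control library 3 and in library 1 at 1%, 17 in control library 1 and 15 in library 2 at 2%. By contrast 18 of 19 were below their own mean in library 2 at 1% and in library 3 at 2%, and 17 in library 3 at 1%. Each diet group thus held libraries on both sides, control library 2 with 13 of 19 below. In control library 1 the members were no higher than genes at large: their median log2 difference from their own means was 0.21 there, and that of all tested genes was also 0.21. In the other 8 libraries the median of all tested genes lay between -0.11 and 0.02. The summed level of the 19 genes was 1766, 1491 and 1856 FPKM in the controls, 1778, 1393 and 1271 FPKM at 1%, and 1477, 1607 and 1289 FPKM at 2%, and the ranges of the 3 groups overlapped.

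**Figure D3:**
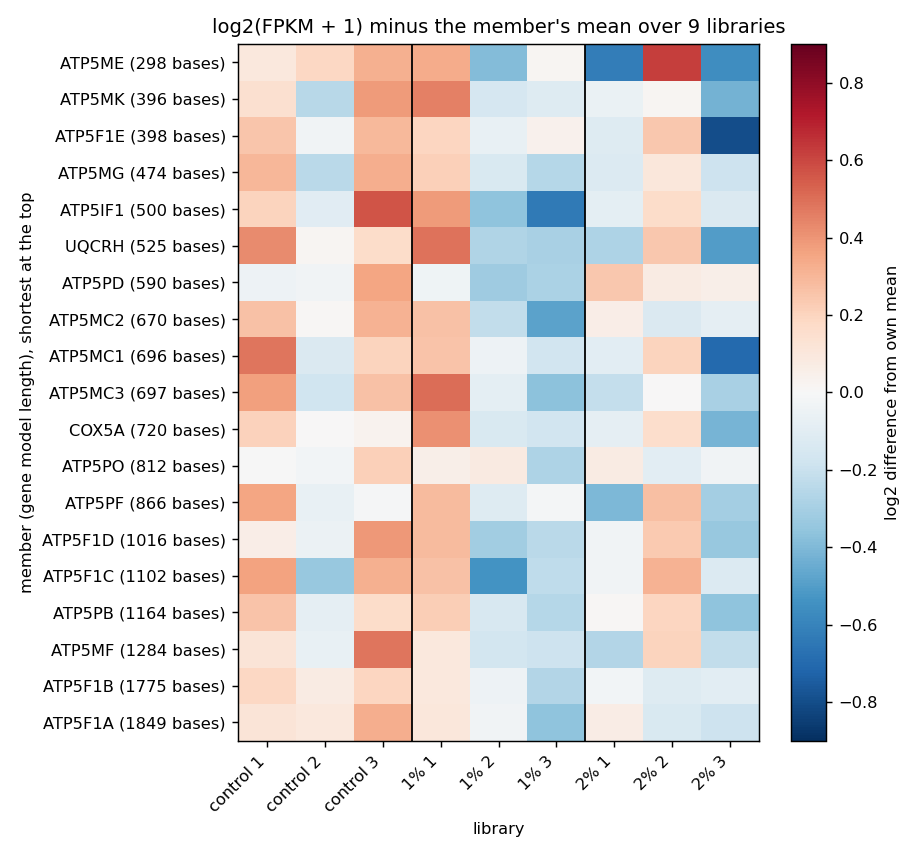
Difference of log2(FPKM + 1) from each member's own mean over the 9 libraries (colour; red above, blue below), with members ordered by gene model length, from 298 to 1849 bases, and black lines between diets. Whole columns share a colour: control 1, control 3, 1% library 1 and 2% library 2 are mostly red, and 1% libraries 2 and 3 and 2% library 3 mostly blue.

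Across the 171 pairs of members the median r over the 9 libraries was 0.68, with 168 pairs above 0 and a range from -0.18 (ATP5PD with ATP5PF) to 0.96. The median was again 0.68 after the group means were removed. Complex I subunits gave a median of 0.59, all tested genes 0.14 and tested genes with models under 1000 bases 0.18. These values are descriptions, since every pair shares the same libraries. The lowest members in library 3 at 1% and in library 3 at 2% were different ones: ATP5F1A, ATP5F1B, ATP5IF1, ATP5MC2, ATP5MC3, ATP5MG and ATP5PO had their minimum in the former, and ATP5F1D, ATP5F1E, ATP5MC1, ATP5MK, ATP5PB, COX5A and UQCRH in the latter.

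Several measures moved with these libraries, and their part in the members' levels was not tested. At 2% the median log2 change, by class of gene model length, was -0.21 for the 153 tested genes under 500 bases, -0.14 for 885 genes of 500 to 1000 bases, -0.09 for 2518 genes of 1000 to 2000 bases and -0.04 for 8388 longer genes, and 13 of the 19 members were under 1000 bases. At 1% the same classes had -0.13, -0.12, -0.14 and -0.14. By library, the 153 genes under 500 bases, 4 of them members, had a median log2 difference from their own means of 0.26, -0.07 and 0.15 in the controls, 0.20, -0.14 and -0.15 at 1%, and -0.13, 0.19 and -0.24 at 2%. Each of these 9 medians had the sign of the members' median in that library, whereas the genes of 2000 bases or more stood between -0.11 and 0.04 outside control library 1. The 12 hepatocyte markers, in the same measure, stood at -0.005, -0.13 and 0.28 in the controls, 0.11, -0.22 and -0.29 at 1%, and 0.23, 0.12 and 0.07 at 2%. Their median log2 change was -0.23 at 1%, where the members had -0.21, and 0.06 at 2%, where the members had -0.24. At 1% the list was split: 8 of the 12 were below control, where 68.6% of all tested genes were, and 4 above. The 2 at an unadjusted p under 0.05 by limma were both higher. The summed level of the 12 was 50086 to 74883 FPKM in controls and 69716 to 73640 FPKM at 1%. Among markers of other cells, the summed level of 8 stellate cell and fibroblast genes was 95.9 to 114.4 FPKM in controls, 70.4 to 101.8 FPKM at 1% and 67.2 to 249.6 FPKM at 2%. It was highest in library 3 at 2%, where 18 members were below their mean. In library 3 at 1%, where 17 members were below their mean, it was only 70.4 FPKM. At 2%, 7 of the 8 were above control, where 4699 of 11944 tested genes were. The summed level of 6 bile duct markers was 11.4 to 45.2 FPKM in controls, 21.2 to 137.2 FPKM at 1% and 15.3 to 39.0 FPKM at 2%. Nearly all of its high values came from SPP1, which was at 129.0 and 112.0 FPKM in libraries 2 and 3 at 1%. In those libraries the median log2 difference of the 6 markers from their own means was -0.50 and -0.17. At 1%, 4 of the 6 were below control, where 68.6% of all tested genes were. The summed level of 3 red cell markers, chiefly HBB, was 2.49 to 27.8 FPKM in controls, 2.44 to 20.3 FPKM at 1% and 0.147 to 5.36 FPKM at 2%, and it was highest in control library 1 and library 1 at 1%. T and NK cell markers were below control for 7 of 7 tested genes at 1%, and so were 7 of 7 Kupffer cell and macrophage markers, where 68.6% of all tested genes were. The summed level of the T and NK cell markers was 26.5 to 41.7 FPKM in controls and 16.5 to 22.5 FPKM at 1%. Of the T and NK cell markers 3 of 7 were at an unadjusted p under 0.05 by limma, where 14.9% of all tested genes were, and 0 of 7 passed. The Kupffer cell and macrophage markers overlapped in summed level, with 327.6 to 679.8 FPKM in controls and 359.5 to 456.3 FPKM at 1%. Of these, 0 of 7 were at an unadjusted p under 0.05. At 2%, 6 of 7 markers in either list were below control, where 60.7% of all tested genes were.

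The stoichiometry of the transcripts was examined by dividing each member by ATP5F1B in the same library, which removes the scale of the library. The ratio of ATP5F1A to ATP5F1B was the steadiest, from 0.690 to 0.812 with a coefficient of variation of 5.59% over the 9 libraries. It averaged 0.756 ± 0.0537 over the controls, 0.727 ± 0.0324 over the 1% libraries and 0.739 ± 0.0479 over the 2% libraries (SD, n = 3), differences within the spread. Both proteins occur in equal number in the head, and both genes have the longest models of the members, 1849 and 1775 bases. Whether either bears on the ratio was not tested. ATP5PO to ATP5F1B followed with a coefficient of variation of 6.77%. Other ratios were wider. ATP5F1E to ATP5F1B ran from 0.237 to 0.496, ATP5IF1 to ATP5F1B from 0.224 to 0.381 and ATP5ME to ATP5F1B from 0.0831 to 0.216. The gene models of ATP5F1E, ATP5IF1 and ATP5ME are 398, 500 and 298 bases long. Dividing by ATP5F1B does not remove counting error or shifts tied to length, whose part was not tested.

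**Figure D4:**
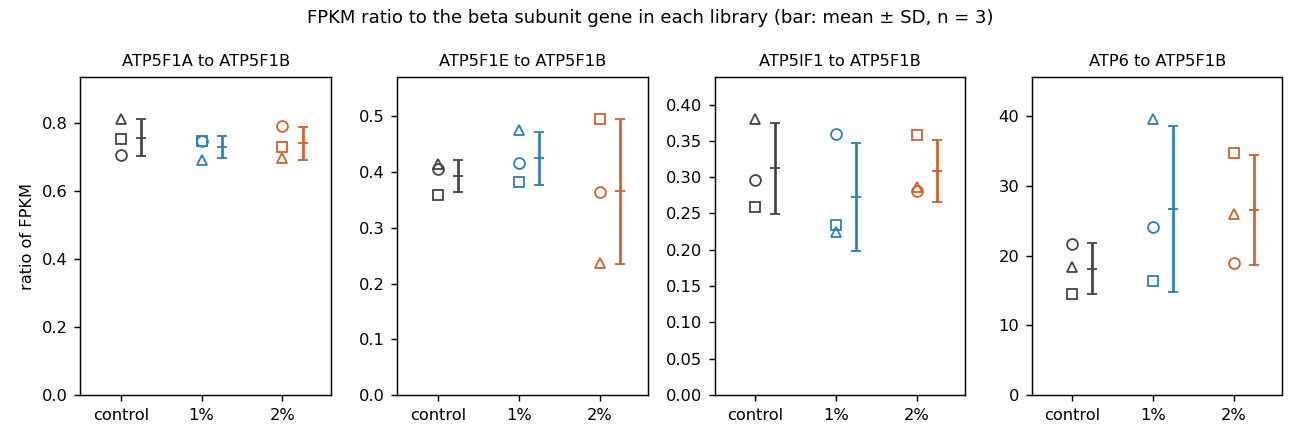
FPKM of ATP5F1A, ATP5F1E, ATP5IF1 and the mitochondrially encoded ATP6 divided by that of ATP5F1B in the same library; points are libraries and bars the mean ± SD of 3. The ATP5F1A ratio stays between 0.690 and 0.812, while the ATP6 ratio runs from 14.4 to 39.7.

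The subunits of complexes III to V made from mitochondrial DNA stood apart from the members in some libraries. Their median log2 difference from their own means was -0.19 in control library 3, 0.51 in library 3 at 1% and 0.06 in library 3 at 2%. The members stood at 0.31, -0.26 and -0.29 in these libraries. In the other libraries both medians had the same sign. ATP6, the proton channel subunit of complex V, was at 5467, 3377 and 4685 FPKM in the controls, 5723, 3509 and 7354 FPKM at 1%, and 4123, 7128 and 5393 FPKM at 2%. Library 3 at 1% held the highest ATP6 and the lowest ATP5F1A and ATP5F1B, and the ratio of ATP6 to ATP5F1B was 39.7 there. That ratio averaged 18.2 ± 3.59 over the controls, 26.7 ± 11.9 over the 1% libraries and 26.5 ± 7.94 over the 2% libraries (SD, n = 3), and the groups overlapped. ATP8, which lies beside ATP6 on the mitochondrial genome and is transcribed with it, was listed at 1.07 to 6.12 FPKM on 3 to 17 reads; with a length of 201 bases it overlaps ATP6, and the counting of overlapping genes is not given in the sources used here, so its level is uncertain.

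Of the 6 mitochondrially encoded genes (CYTB, COX1, COX2, COX3, ATP6 and ATP8), 5 had a log2 change above 0 at 1%, with a median of 0.21, and 6 at 2%, with a median of 0.24. Of all 11944 tested genes, 3754 were above 0 at 1% and 4699 at 2%. At either dose 0 of 6 passed. COX1, the catalytic subunit of complex IV, was at 16823, 11657 and 14626 FPKM in the controls, 16572, 11093 and 20890 FPKM at 1%, and 18736, 26011 and 22584 FPKM at 2%. Every 2% library lay above every control, an order that 311 of 11944 tested genes had. COX1 was the 1 gene of these 6 with that order. Its log2 change of 0.65 by limma (SE 0.322, 95% interval -0.07 to 1.37, adjusted p = 0.950) did not pass, and after quantile scaling it was 0.34. COX5A averaged 46.4 FPKM in controls and 40.9 FPKM at 2%. The ratio of COX1 to COX5A averaged 308.1 ± 37.0 over the controls, 368.2 ± 149.8 over the 1% libraries and 560.8 ± 124.3 over the 2% libraries (SD, n = 3). CYTB, the mitochondrially encoded subunit of complex III, stood in a ratio to UQCRH of 23.6 ± 3.59, 37.9 ± 19.6 and 37.7 ± 7.33 in the same order. For both ratios every 2% library exceeded every control, and the share of other gene pairs with that order was not computed. With 3 libraries against 3 an exact permutation test cannot go below p = 0.10, and none was run. How the libraries were depleted of ribosomal RNA or enriched for polyadenylated RNA is not given in the sources used here.

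**Figure D5:**
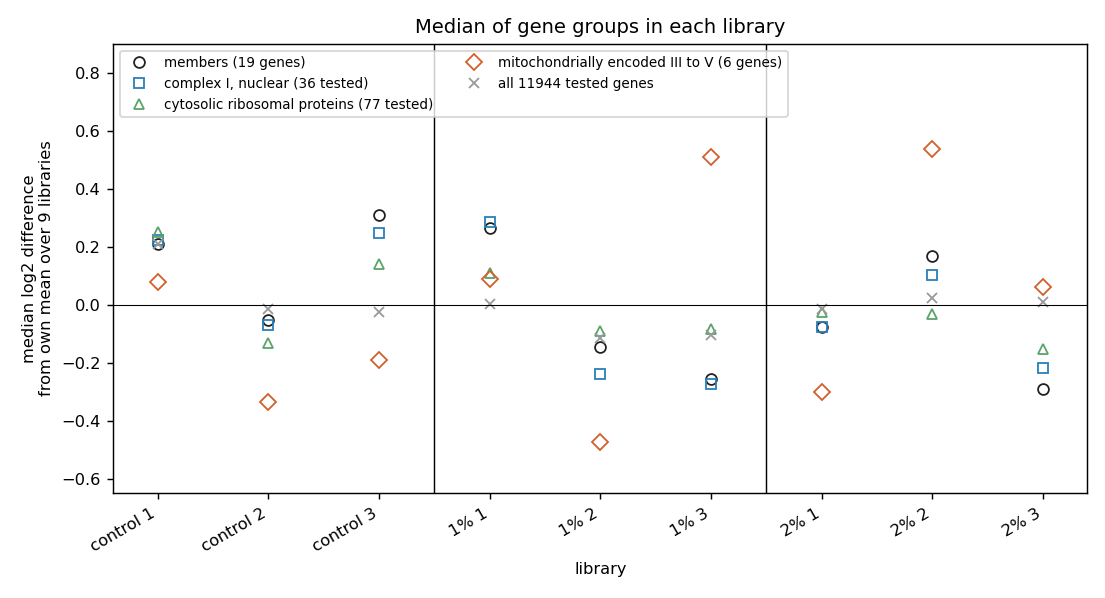
Median log2 difference from each gene's own mean, by library, for the 19 members, 36 complex I subunits, 77 cytosolic ribosomal protein genes, 6 mitochondrially encoded subunits and all 11944 tested genes. The members and complex I stand close together in each library, from 0.31 in control 3 to -0.29 in 2% library 3 for the members. The ribosomal protein genes run from 0.25 in control 1 to -0.15 in 2% library 3. The mitochondrially encoded genes reach 0.51 in 1% library 3 and 0.54 in 2% library 2.

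Complex I, the entry point for electrons from NADH, stood close to the members in each library. Its 36 tested nuclear subunits stood, in median log2 difference from their own means, at 0.22, -0.07 and 0.25 in the controls, 0.28, -0.24 and -0.28 at 1%, and -0.08, 0.10 and -0.22 at 2%. The members stood at 0.21, -0.05 and 0.31 in the controls, 0.26, -0.15 and -0.26 at 1%, and -0.08, 0.17 and -0.29 at 2%. At 1%, 30 of 36 complex I genes lay below control with a median of -0.22, and at 2%, 32 of 36 with a median of -0.18. At either dose 0 of 36 passed. Of 77 cytosolic ribosomal protein genes, 64 lay below control at 1%, with a median of -0.09, and 62 at 2%, with a median of -0.15. Of 9 genes for other mitochondrial proteins, 9 lay above control at 1%, with a median of 0.16, and 6 at 2%, with a median of 0.045. Of all tested genes, 68.6% lay below control at 1% and 60.7% at 2%. NDUFA4, a subunit now assigned to complex IV whose name falls outside the rule, was at 122.6 to 181.7 FPKM. Its log2 change was -0.03 at 1% (SE 0.190, adjusted p = 0.951) and 0.08 at 2% (SE 0.190, adjusted p = 0.984) by limma. All 2% libraries lay above all 1% libraries, as for 11% of all tested genes, but only narrowly. The lowest 2% library was at 158.2 FPKM and the highest 1% library, the one labelled both ways, at 157.7 FPKM. Counting error of NDUFA4 in the library with its fewest reads was 3.2%.

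Of the assembly factors, the 6 for complex V had a median log2 change of -0.08 at 1% and 0.06 at 2%, the 7 tested for complex IV -0.05 and 0.02, and the 4 tested for complex III -0.16 and 0.07, where all tested genes had -0.14 and -0.06. None of the 3 lists had a gene that passed. Among the 4 carriers that move phosphate and ATP across the inner membrane, SLC25A6, an ADP/ATP carrier, was at 217.3, 171.3 and 179.9 FPKM in the controls and 166.1, 114.4 and 144.4 FPKM at 1%. All 3 libraries at 1% lay below all controls, as for 15.6% of tested genes (log2 change -0.43, SE 0.197, adjusted p = 0.351; -0.28 without library 2 at 1%), and the log2 change at 2% was -0.09. SLC25A5, another ADP/ATP carrier, went the other way at 1%: it was at 41.7, 22.1 and 20.4 FPKM in the controls and 44.2, 30.6 and 46.7 FPKM at 1%, with overlap. By limma its log2 change was 0.56 (SE 0.304, adjusted p = 0.396). The change was 0.88 without control library 1 and 0.38 without control library 3. The phosphate carrier SLC25A3 had a log2 change of -0.02 at 1% and -0.28 at 2%. SLC25A4, the ADP/ATP carrier most abundant in muscle and heart, was at 335.0, 162.0 and 315.4 FPKM in the controls and 184.1, 177.7 and 98.3 FPKM at 2% (log2 change -0.80, SE 0.380, adjusted p = 0.950; -0.51 without library 3 at 2%), with overlap.

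Of 12 regulators of respiratory chain genes, 9 were tested and 0 passed. PPARGC1A, the coactivator that raises respiratory chain transcription in fasting liver, was at 4.94, 4.53 and 3.35 FPKM in the controls, 3.05, 1.68 and 0.673 FPKM at 1%, and 3.19, 2.62 and 2.59 FPKM at 2%. Every library of either dose lay below every control, an order that 15.6% of tested genes had at 1% and 8.02% at 2%. The log2 change was -0.99 at 1% (SE 0.282, 95% interval -1.62 to -0.36, adjusted p = 0.261) and -0.46 at 2% (SE 0.282, 95% interval -1.10 to 0.17, adjusted p = 0.950), and neither passed. These changes of a low gene depend on the constant added before the logarithm. With 5 in place of 1 they were -0.46 and -0.25, and with 0.1 they were -1.404 and -0.58. Limma voom on the recovered reads gave -1.444 and -0.599. Single libraries also moved the change at 1%: it was -0.67 without library 3 of that dose and larger in size than -0.99 without library 1. ESRRA, the nuclear receptor that PPARGC1A works through, was at 19.9, 16.3 and 18.9 FPKM in the controls and 11.2, 17.3 and 9.53 FPKM at 2%, with overlap (log2 change -0.54, SE 0.233, adjusted p = 0.950). TFAM, which packages and transcribes mitochondrial DNA, ranged only from 7.47 to 10.1 FPKM.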

How the data were processed

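The authors deposited 1 table of FPKM per gene for 9 liver libraries, per the file headers. GRCm38 and mm10, both mouse builds, are named in the submitters' processing notes. The gene names are nevertheless those of sheep: 20169 of 21257, and 19 of 19 members, were found in the RefSeq table of assembly ARS-UI_Ramb_v3.0, used for names only. Which aligner, counter and annotation made the values is not given in the sources used here, and no coordinates are printed. Locus tags of 13 mitochondrial genes were replaced by symbols. All 17402 genes above 0 in at least 2 libraries gave whole reads (100%, tolerance 0.01), from which depth and the gene model lengths behind the FPKM were recovered; counting error covers these reads only.

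Groups were taken from the treatment label. Limma 3.58.1 in R 4.3.3 was run on log2(FPKM + 1), a scale that understates changes of low genes, with an intensity trend and all 9 libraries in 1 fit, on 11944 genes with FPKM of at least 1 in at least 3 libraries; all 19 members passed this filter. P-values are two-sided, with Benjamini-Hochberg adjustment over all tested genes and a threshold of 0.05. The script was tested on simulated data. No library was a copy of another (smallest chi-square per degree of freedom 37.2 over 36 pairs). The members and gene lists were chosen with earlier results of these data known. Values by library are given for the 3 highest members of each complex, the 3 with the smallest p in each comparison, the c subunit genes and ATP5IF1; the mitochondrially encoded subunits, NDUFA4, PPARGC1A, ESRRA, TFAM and the carriers were eligible by name, and those given by library were chosen among them. SPP1 and HBB were named for the level of their lists. Tables were handled in Python 3.11.15 (numpy 2.4.6, pandas 2.3.3) and plots drawn with matplotlib 3.10.9. Alternatives were pseudocounts of 0.1 and 5, no filter or a mean FPKM of at least 5, quantile and median-ratio scaling, limma voom on recovered reads, only the groups compared, a replicate block, the library labelled both ways counted at 2%, and each library left out.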

Additional observations from a re-analysis of the deposited data

How the results depend on the processing

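In 19 alternative settings, 0 of 19 members passed in any of the 3 comparisons, with a smallest adjusted p of 0.158. When single libraries were left out the members' median log2 change ran from -0.35 to -0.10 at 1%, from -0.34 to -0.14 at 2% and from -0.11 to 0.09 between the doses, and in the other settings from -0.22 to -0.04 (the latter with median-ratio scaling), from -0.28 to -0.12 and from -0.18 to -0.01. Of 25 gene results, 2 changed sign in some setting. COX5A at 1% became 0.034 with quantile scaling, 0.127 with median-ratio scaling and 0.054 when the library labelled both ways was counted at 2%, and ran from -0.240 to 0.054 with single libraries left out; ATP5F1E between the doses ran from -0.512 to 0.007, the latter without library 3 at 2%. The causes were not tested.

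Replicate numbers did not pair the libraries: libraries of the same number correlated at -0.29 to 0.28 and others at -0.29 to 0.45. With the replicate block, 0 members passed and the medians were -0.21, -0.24 and -0.01.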
